A study of Mus musculus with 24 samples.

Results

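The comparison described here set 3 Mof-knockout samples of mouse embryonic fibroblasts (MEFs) against 3 wild-type samples, all given vehicle, and it covers 6 of the 24 samples of the series. All cells were at passage 2, were plated at 10000 cells per cm2 and received DMSO, the solvent in which the drug of the other groups was given. How Mof was deleted, and from how many embryos the cells came, is not stated in the labels. A parallel pair of groups, 3 wild-type and 3 Mof-knockout samples treated with Adriamycin (doxorubicin, which poisons topoisomerase II) at 0.1 µg/ml for 24 h, served only to show where the vehicle comparison differed. Nothing in the labels says that replicates were separate cultures, so p-values may measure technical spread alone. The members of the comparison are all 43626 rows of the table that the authors made for it, of which 15605 carried an adjusted p and are called tested.

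MOF, the product of Kat8, is the main acetyltransferase for lysine 16 of histone H4. It works in the MSL complex, which acts along gene bodies, and in the NSL complex, which sits at the promoters of many housekeeping genes and also serves mitochondria. Acetylation of this lysine loosens contacts between nucleosomes. Genes of the interferon response, mitosis, the p53 response and the lysosome are set apart below, and the other families of the table are described.

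Every fold change is Mof knockout over wild type on the log2 scale and is followed by its standard error (SE) after the ± sign, both taken from the authors' deposited table. A gene "rose" or "fell" where its adjusted p in that table, which the authors computed with DESeq2, was below 0.05. The table gives 1 mean normalized count per gene over the 6 samples and no value per sample, so the spread between samples is seen only through the SE and library depths are unknown. Summed over genes, the mean counts came to 2.11e+07. Mean counts are not divided by gene length, so they show how many reads stand behind a value and not how genes differ in level. In all, 37.5% of tested genes passed the threshold, 17.8% higher and 19.6% lower in the knockout. The families below are read against these shares unless others are given. Among the 10497 tested genes with a mean count of 100 or more the shares were 20.2% higher and 26.5% lower. Below that count they were 13% and 5.52%. The 4 families set apart held 395 tested genes (203 higher and 143 lower), and 5505 of the changed genes lay outside them, 2582 higher and 2923 lower. Family counts below leave their members out, and the members named for a family were taken by smallest adjusted p, not by largest fold change, unless stated. With RNA from whole cultures, fewer cells of a type and less RNA per cell cannot be told apart.

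Kat8 (ENSMUSG00000030801, GRCm38 chromosome 7, 127912516 to 127925837) was at -1.96 ± 0.20 in the authors' deposited table, which is 25.7% of the wild-type level, with a mean count of 160. The direction of the table was read from this sign, so it does not test the labels. Of the 10 tested genes nearest to Kat8, 5 on each side within 150124 bases of its start, by the authors' deposited table Trim72 rose (1.84 ± 0.55) and the other 9 did not pass. They included Bckdk at -0.21 ± 0.09 in the authors' deposited table. The cells of both genotypes carried a Y chromosome: Ddx3y had a mean count of 1627 and a change of 0.04 ± 0.12 in the authors' deposited table. None of the 7 tested Y-linked genes passed the threshold by DESeq2, and Xist, the RNA of the inactive X chromosome, had a mean count of 2.86 and no adjusted p.

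All 18 fibroblast markers were tested, with 4 higher and 1 lower. Lumican (Lum, 2.42 ± 0.21), decorin (Dcn) and Pdpn were among the higher in the authors' deposited table, and Col1a2 was the lower one. Vimentin (Vim) and the mesenchymal factor Twist1, chosen after their values were seen, were at -0.02 ± 0.07 and 0.15 ± 0.11 in the authors' deposited table. Of 22 macrophage markers with an entry 20 were tested and 1 of them is set apart. Of the other 19, 8 rose and 0 fell, with a median of 0.63. The complement gene C1qa (1.01 ± 0.27) and the receptor gene Emr1 (1.21 ± 0.25) were among them in the authors' deposited table. Of the lymphocyte and mast cell markers only 2 had enough reads to be tested, and neither passed. Whether the share of macrophages differed between the genotypes was not tested.

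**Figure D1:**
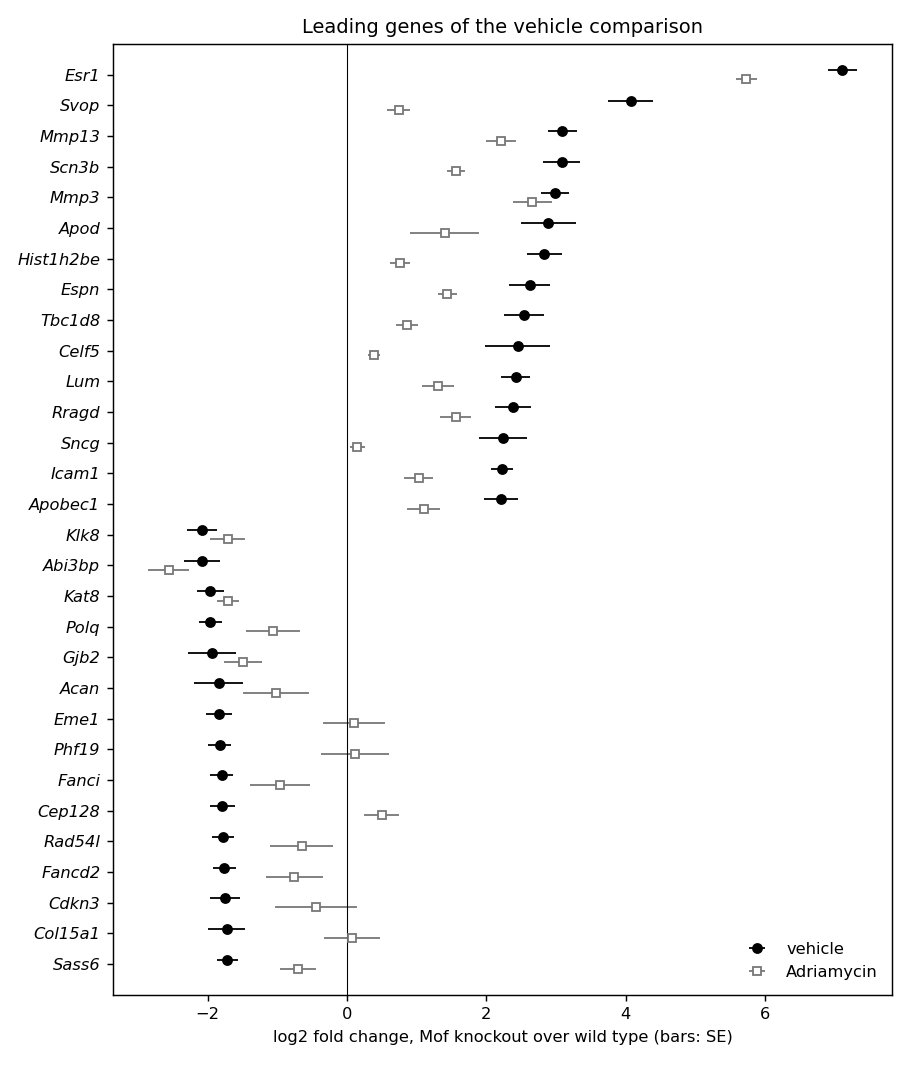
Log2 fold change (Mof knockout over wild type) of the 15 highest and 15 lowest genes under vehicle among those past the threshold whose mean count reached 100, outside the 4 families set apart. Filled circles show vehicle and open squares Adriamycin, and bars show the SE of the authors' deposited tables. Esr1 stands far to the right at 7.11, and the lowest genes lie near -2.

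Where the mean count reached 100 or more, the leading increases included genes of secretion, membrane excitability and the cytoskeleton. Esr1, the oestrogen receptor alpha, led at 7.11 ± 0.21 in the authors' deposited table, which does not show the part of the gene that its reads covered. Since the labels do not say how Mof was deleted, whether these reads came from the cells' own Esr1 gene was not tested. Svop (ENSMUSG00000042078, chromosome 5, 114026910 to 114091570), a gene for a transporter-like protein of synaptic vesicles, was at 4.07 ± 0.32 (16.8-fold) with a DESeq2 adjusted p of 5.13e-34, by the authors' deposited table. Scn3b (3.08 ± 0.27), a sodium channel beta subunit, Espn (2.62 ± 0.30), an actin bundler of microvilli and hair cells, and Sncg (2.24 ± 0.34), gamma-synuclein, rose in the authors' deposited table. By the authors' deposited table Apod (2.89 ± 0.39), a lipocalin, Icam1 (2.22 ± 0.16), an adhesion molecule for leukocytes, and Apobec1 (2.21 ± 0.24), the cytidine deaminase that edits the apolipoprotein B transcript, rose too. Rragd (2.38 ± 0.26), a Rag GTPase that carries nutrient signals to mTORC1 at the lysosome, Tbc1d8 (2.54 ± 0.28), a gene with a Rab GTPase-activating domain, and Celf5 (2.45 ± 0.47), an RNA-binding protein gene, completed the increases outside the families below in the authors' deposited table.

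The leading decreases included genes of matrix, junctions and recombination. Klk8 (-2.08 ± 0.22), a secreted serine protease, and Abi3bp (-2.08 ± 0.26), a matrix protein gene, were at 23.6% and 23.7% of the wild-type level in the authors' deposited table. Gjb2 (-1.94 ± 0.35), the gene of connexin 26, and Acan (-1.84 ± 0.35), the large proteoglycan of cartilage, fell as well in the authors' deposited table, as did Col15a1 (-1.73 ± 0.27), a collagen of basement membrane zones. Phf19 (-1.83 ± 0.16), a partner of Polycomb complex PRC2, Cep128 (-1.79 ± 0.18), of centriole appendages, and Sass6 (-1.72 ± 0.15), which templates new centrioles, were each below 31% of wild type in the authors' deposited table. Among the other low leaders, Polq, Eme1, Fanci, Fancd2 and Rad54l belong to the repair family and Cdkn3 to the cell cycle inhibitors below.

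**Figure D2:**
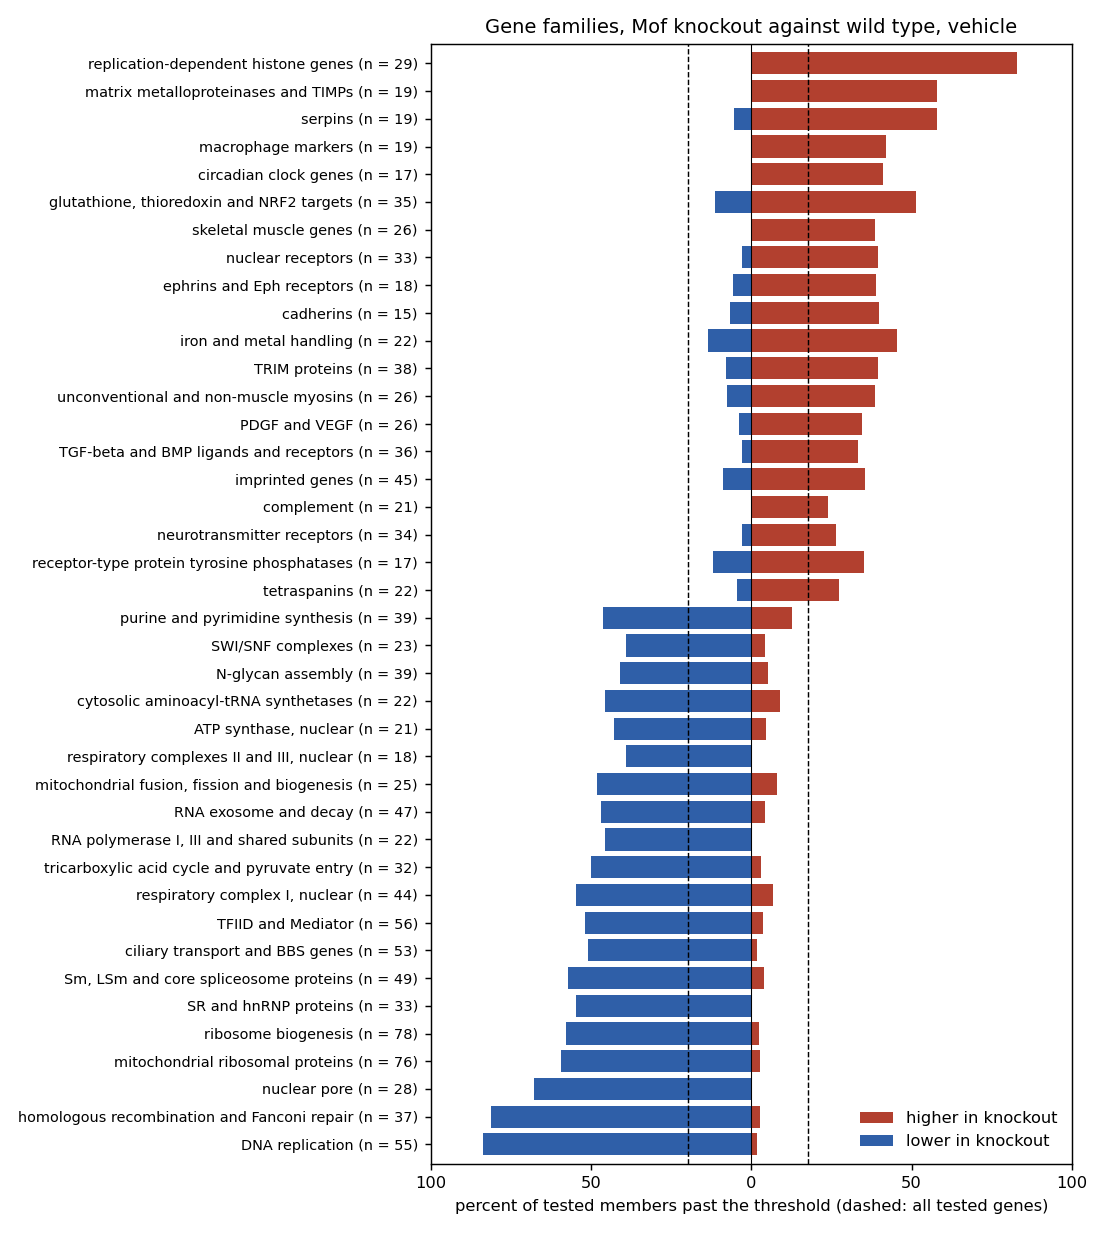
Percent of tested members past the threshold in each direction for the 20 families with the largest excess of higher over lower members and the 20 with the largest excess of lower members, among families with at least 15 tested members (vehicle, members set apart and 1 family not reported here left out). Bars to the right are higher in the knockout, bars to the left lower, and dashed lines mark the shares over all tested genes, 17.8% and 19.6%. The replication-dependent histone genes top the plot and the genes of DNA replication stand at its foot.

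In all, 149 families were counted, and 90 of them met the rule for a description of their own. A family could meet it with 40% of its members past the threshold, and 41.3% of all tested protein-coding genes passed. Meeting the rule therefore does not by itself place a family above the background. Among families with at least 15 tested members, the widest contrast lay between histone genes and the genes of DNA replication. Histone genes of the replication-dependent kind make the bulk histones for newly copied DNA. Of 64 with an entry only 29 were tested. Of these 24 rose and 0 fell, with a median of 1.75 and all 29 values above 0. Tested genes had a mean count of at least 4.37 over both genotypes, so a scarce gene can be tested through the genotype where it is higher. The proteins that copy DNA went the other way: of 55 tested, 46 fell and 1 rose, with a median of -0.68. Homologous recombination and Fanconi repair, which mend broken and cross-linked DNA, had 30 of 37 lower and 1 higher, median -0.89. The mitotic family set apart had 133 of 140 lower in the same comparison, and its part in the fall of the replication genes was not tested.

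Of the 29 histone genes, 24 lie in clusters on chromosome 13. Their transcripts usually end in a short stem-loop in place of a poly(A) tail, and the libraries were made with poly(A) enrichment. The counts therefore do not measure the transcripts without a tail, and whether the whole RNA of these genes rose was not tested. Each variant of the stem-loop found in the GENCODE M21 transcripts (GRCm38) of the tested genes is shown because it marks the end that such transcripts normally have. The pattern searched was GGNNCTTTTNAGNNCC on the transcript strand, and the capitals mark the bases of the stem on each side of a loop of 4 bases.
Hist1h2be (and 13 other genes): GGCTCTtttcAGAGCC
Hist1h4h (and Hist1h4n, Hist1h4d): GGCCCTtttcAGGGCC
Hist1h4i (and Hist2h4): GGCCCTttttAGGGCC
Hist1h3c (and Hist1h3e, Hist1h2bb): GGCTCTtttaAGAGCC

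The stem-loop was found in an annotated transcript of 22 of the 29 tested histone genes. In 13 of them an annotated transcript ran more than 100 bases past it, and 11 of these 13 rose, with a median of 1.58. In the 9 whose annotation ended within 100 bases, 8 rose, with a median of 2.00. The 7 without a match had 5 that rose and a median of 1.86. Hist1h2be (2.83 ± 0.25), an H2B gene on chromosome 13 whose annotated transcript runs 1861 bases past its stem-loop, stood at 7.12-fold in the authors' deposited table. Hist1h4h (3.48 ± 0.35), an H4 gene whose annotation stops 46 bases past the stem-loop, was higher still in the authors' deposited table. Hist1h2bc (1.92 ± 0.13) and the linker histone gene Hist1h1c (1.21 ± 0.11) carried the most reads of the family, with mean counts of 1031 and 1008, and rose with DESeq2 adjusted p of 4.98e-44 and 2.93e-27, by the authors' deposited table. The 5 that did not pass, Hist1h2bh, Hist1h2ai, Hist1h3e, Hist1h3c and Hist1h2ae, all had mean counts below 12. Of the 29 genes, 24 had a mean count under 100, a range in which 13% of all tested genes rose and 5.52% fell. Histone copies are near identical, and no source used here says how reads matching several copies were counted.

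With Adriamycin the histone genes stood lower. Of 28 tested in both tables, 9 rose and 1 fell with the drug, where 32.7% of all tested genes passed in either direction, and the median was 0.37 against 1.81 with vehicle. The knockout effect itself differed between vehicle and Adriamycin in 13 of them, all 13 lower with the drug, by a z test of the difference with Benjamini-Hochberg adjustment. Over all genes tested in both tables that test called 7.09%. For Hist1h1c the authors' deposited tables gave 1.21 ± 0.11 with vehicle and -0.41 ± 0.16 with Adriamycin. DESeq2 can shrink fold changes toward 0, most for scarce transcripts, and the amount may differ between vehicle and Adriamycin. The part of such shrinkage in these differences was not tested.

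Replacement histones, which are used outside S phase, moved mostly the other way, with 6 of 10 lower and 2 higher. The linker histones H1f0 (-0.90 ± 0.10) and H1fx (-1.48 ± 0.18) and the macroH2A gene H2afy2 (-1.04 ± 0.12) fell in the authors' deposited table. The H2A genes H2afj (0.72 ± 0.09) and Hist3h2a (1.66 ± 0.21), the last of which also sits on the replication-dependent list, rose in the authors' deposited table.

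**Figure D3:**
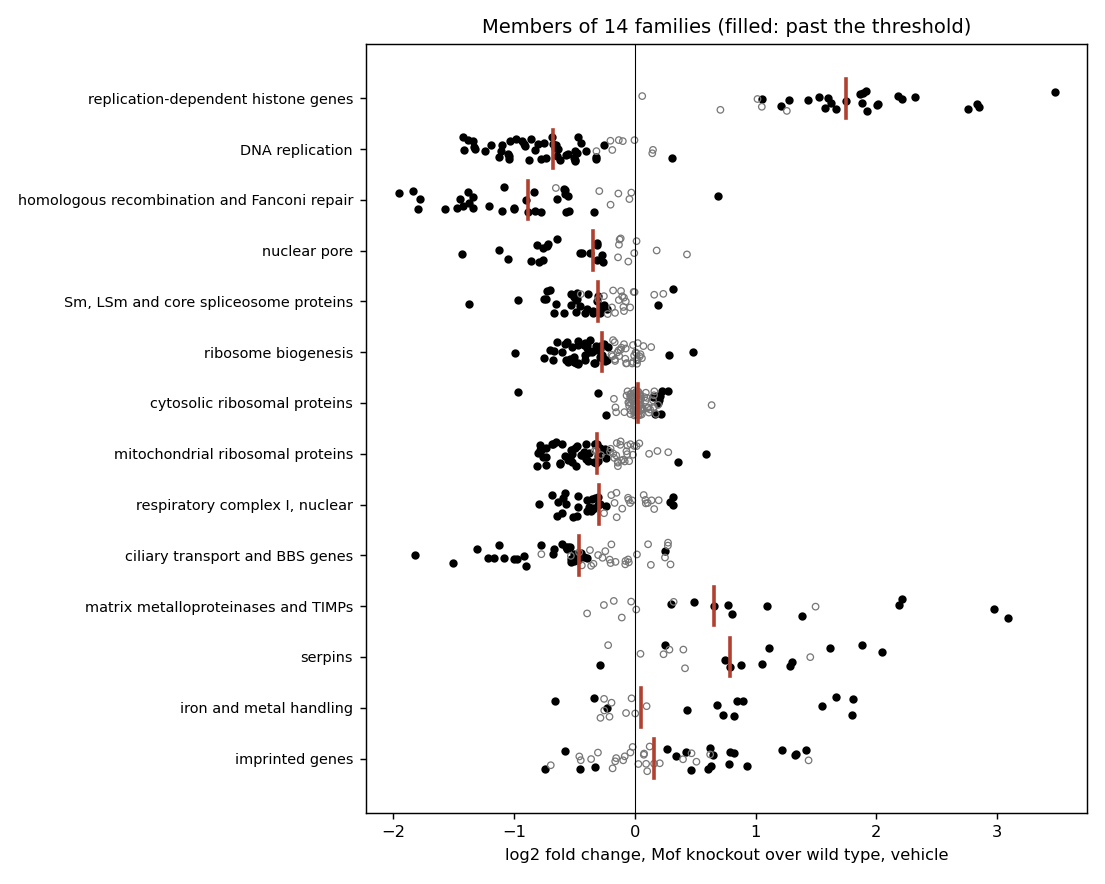
Log2 fold change under vehicle of every tested member (points) of 14 families, members set apart left out. Filled points passed the threshold, open points did not, and the bar is the family median. The histone genes lie wholly above 0 with a median of 1.75, whereas the points of DNA replication and of recombination lie mostly below it.

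The replication genes that fell came from several steps of the process. The helicase subunit Mcm5 (-1.04 ± 0.09), the checkpoint mediator Clspn (-1.33 ± 0.12) and the ligase Lig1 (-1.04 ± 0.10), which joins Okazaki fragments, had the smallest adjusted p of the family by the authors' deposited table, the largest of the 3 DESeq2 values being 1.64e-25. The only member that rose was Orc4 (0.30 ± 0.10), a subunit of the origin recognition complex, in the authors' deposited table. Among repair genes Polq (-1.96 ± 0.17), the polymerase of microhomology-mediated end joining, Fanci (-1.80 ± 0.16) and Fancd2 (-1.76 ± 0.16), which form the clamp at DNA cross-links, and Rad54l (-1.78 ± 0.16), a motor of strand exchange, fell to less than 30% of wild type in the authors' deposited table. Mus81 and Eme1 are the subunits of 1 nuclease, and they moved apart: Mus81 (0.69 ± 0.13) was the only member of the family that rose, and Eme1 (-1.84 ± 0.19) fell, in the authors' deposited table. The effect on replication genes with Adriamycin differed from that with vehicle in 9 of 54 members, where 7.09% of all genes tested in both were called.

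Nucleotide supply followed in part. Of 39 genes of purine and pyrimidine synthesis, 18 fell and 5 rose, median -0.24. Thymidine kinase Tk1 (-1.22 ± 0.10), thymidylate synthase Tyms (-1.02 ± 0.11) and Pfas (-0.91 ± 0.10), an enzyme of the purine ring, fell in the authors' deposited table. Adssl1 (2.06 ± 0.28), the muscle-type adenylosuccinate synthase, and the salvage enzyme Hprt (0.37 ± 0.07) rose in the authors' deposited table. Serine and one-carbon metabolism, which feeds these pathways, had 11 of 26 lower and 4 higher. Shmt1 (-0.93 ± 0.12), which loads folate with the carbon of serine, and Ahcy (-0.57 ± 0.10), which clears S-adenosylhomocysteine, fell in the authors' deposited table, and both differed from their values with Adriamycin, 0.16 ± 0.28 and 0.42 ± 0.15.

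The G1 regulators split. Cyclins D2 and D1, which drive entry into S phase with CDK4 and CDK6, rose (0.91 ± 0.10 for Ccnd2 and 0.85 ± 0.12 for Ccnd1 in the authors' deposited table). The repressor-type E2F genes E2f7 (-1.17 ± 0.12) and E2f8 (-0.91 ± 0.11) and the E2F partner Tfdp2 (-0.99 ± 0.12) fell in the authors' deposited table. In all 6 of 30 rose and 10 fell. Of the CDK inhibitors other than those set apart, Cdkn1c (1.22 ± 0.17), the imprinted inhibitor p57, and Cdkn2b (0.77 ± 0.12), of the INK4 group, rose, while the INK4 genes Cdkn2c (-1.08 ± 0.17) and Cdkn2d (-0.88 ± 0.15) and the phosphatase gene Cdkn3 (-1.75 ± 0.21) fell in the authors' deposited table. Mxd4 (0.97 ± 0.12), a MAX-binding antagonist of MYC, rose in the authors' deposited table.

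Genes for the nuclear machinery of gene expression fell broadly. The nuclear pore, the channel through the nuclear envelope, had 19 of 28 members lower and 0 higher, median -0.34. Nup133 (-1.05 ± 0.10) and Nup107 (-0.86 ± 0.08) of the Y-shaped scaffold and Nup205 (-0.72 ± 0.07) of the inner ring had the smallest adjusted p in the family by the authors' deposited table. TFIID and Mediator, which place RNA polymerase II at promoters, had 29 of 56 lower and 2 higher, median -0.28. Their subunits Taf3 (-1.02 ± 0.14), which reads a methyl mark on histone H3, Taf2 (-0.65 ± 0.08) and Med24 (-0.66 ± 0.10) fell in the authors' deposited table, and Taf13 (0.37 ± 0.12) and Med22 (0.27 ± 0.09) rose. RNA polymerase II itself was mixed: its largest subunit Polr2a (0.41 ± 0.06) rose, and Polr2b (-0.46 ± 0.08), Polr2c (-0.60 ± 0.10) and Polr2i (-0.54 ± 0.15) fell in the authors' deposited table. Polymerases I and III, which make ribosomal and transfer RNA, had 10 of 22 subunits lower and 0 higher. Polr1b (-0.71 ± 0.10), of polymerase I, and Polr3f (-0.73 ± 0.12) and Polr3g (-0.92 ± 0.14), of polymerase III, were among those that fell in the authors' deposited table.

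RNA processing shared the fall. Of 49 core spliceosome genes 28 fell and 2 rose, median -0.30. Sf3a3 (-0.75 ± 0.09), a subunit of the U2 particle, and the LSm ring genes Lsm3 (-0.97 ± 0.13) and Lsm5 (-1.38 ± 0.18) fell in the authors' deposited table, and Sf3b1 (0.19 ± 0.07), the branch-site subunit, was among the pair that rose. SR and hnRNP proteins, which choose splice sites, had 18 of 33 lower and 0 higher, with Hnrnpa1 (-0.70 ± 0.08), Hnrnpa3 (-0.42 ± 0.06) and Hnrnpd (-0.62 ± 0.07) among them in the authors' deposited table. The RNA exosome and decay genes had 22 of 47 lower and 2 higher. Exosc8 (-0.82 ± 0.10) and Exosc2 (-0.70 ± 0.11), of the exosome, and Cnot10 (-0.66 ± 0.10), of the deadenylase complex, fell in the authors' deposited table, while the decay factor Zfp36l1 (0.49 ± 0.11) and the poly(A)-binding protein gene Pabpc1 (0.30 ± 0.07) rose. The knockout effect differed with Adriamycin in 12 of 49 spliceosome genes, 7 of 33 SR and hnRNP genes and 10 of 27 nuclear pore genes, against 7.09% over all genes.

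Ribosome assembly genes fell more often than ribosomal protein genes changed. Of 78 biogenesis genes 45 fell and 2 rose, median -0.27. Tcof1 (-1.0 ± 0.09), the treacle protein that promotes ribosomal RNA synthesis, was at 50.1% of wild type in the authors' deposited table with a DESeq2 adjusted p of 3.9e-27, and Heatr1 (-0.58 ± 0.08), a factor of the small subunit processome, fell too. With Adriamycin Tcof1 was at -0.02 ± 0.11 in the authors' deposited table, which differed from its value with vehicle. Of 85 cytosolic ribosomal protein genes 9 rose and 3 fell, with values from -0.96 to 0.64 and a median of 0.03. With Adriamycin 65 of the 85 rose, where 32.7% of all genes passed in either direction, and the effect differed between the drug conditions in 9 of 85, where 7.09% of all genes were called. Translation factors had 6 of 53 higher and 15 lower, and cytosolic tRNA synthetases 2 of 22 higher and 10 lower. Among the synthetases Aars (0.51 ± 0.10) and Sars (0.53 ± 0.11) rose and Kars (-0.41 ± 0.08), Mars (-0.40 ± 0.08) and Hars (-0.37 ± 0.08) fell in the authors' deposited table.

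The partners of MOF changed in both directions and by small amounts. Of 11 MSL and NSL subunits 4 rose and 4 fell, and all values lay between -0.38 and 0.46. The NSL scaffold gene Kansl1 (0.46 ± 0.08), its partner Kansl2 (0.40 ± 0.09) and the sugar transferase gene Ogt (0.44 ± 0.10) rose, and the host cell factor gene Hcfc1 (-0.38 ± 0.07), Wdr5 (-0.28 ± 0.08) and Mcrs1 (-0.36 ± 0.11) fell in the authors' deposited table. Among the other chromatin families, SWI/SNF remodellers had 9 of 23 lower and 1 higher, with Brd9 (-0.66 ± 0.11), Actl6a (-0.62 ± 0.11) and Bcl7a (-0.72 ± 0.13) among the lower and Dpf2 (0.29 ± 0.10) as the only member that rose in the authors' deposited table. Histone acetyltransferases other than Kat8 had 1 of 15 higher and 4 lower, deacetylases and sirtuins 1 of 18 and 4, Polycomb genes 4 of 34 and 8, and lysine methyltransferases 3 of 46 and 9, each below the overall 37.5%.

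Genes for mitochondrial proteins that are encoded in the nucleus fell more often than they rose in most of the families described. Most of these genes had a mean count of 100 or more, a range in which 26.5% of all tested genes fell. Among protein-coding genes in the fourth to the seventh of 10 groups by mean count 31.3% to 33.5% fell. Complex I of the respiratory chain had 24 of 44 lower and 3 higher, complexes II and III 7 of 18 and 0, and the ATP synthase 9 of 21 and 1. Ndufa9 (-0.65 ± 0.09) and Ndufa5 (-0.79 ± 0.13) of complex I, the succinate dehydrogenase anchor Sdhd (-0.37 ± 0.07) and the Rieske protein gene Uqcrfs1 (-0.44 ± 0.09) of complex III fell in the authors' deposited table. For the ATP synthase the assembly factors Atpaf1 (-0.81 ± 0.18) and Atpaf2 (-0.63 ± 0.12) fell in the authors' deposited table. Cytochrome c oxidase had 3 of 28 nuclear genes higher and 4 lower, below the overall share. Mitochondrial ribosomal proteins had 45 of 76 lower and 2 higher, median -0.32, with Mrpl9 (-0.74 ± 0.10), Mrpl18 (-0.76 ± 0.11) and Mrps5 (-0.80 ± 0.12) among the lower and Mrps6 (0.59 ± 0.10) and Mrpl17 (0.35 ± 0.08) on the other side in the authors' deposited table. Mitochondrial tRNA synthetases had 6 of 17 lower (35.3%, near those shares). Aars2 (-0.85 ± 0.15) was among them, and Lars2 (1.04 ± 0.10) was the only one that rose, both in the authors' deposited table.

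The mitochondrial genome did not follow. Of its 13 tested protein genes 2 rose and 0 fell, and by the authors' deposited table both of its ribosomal RNAs rose, mt-Rnr1 (1.02 ± 0.08) and mt-Rnr2 (0.67 ± 0.07). Tfam (-0.70 ± 0.12), which packages and transcribes that genome, fell, and Ppargc1a (2.35 ± 0.55), the coactivator PGC-1alpha, rose in the authors' deposited table, although its mean count was only 13. The tricarboxylic acid cycle and pyruvate entry had 16 of 32 lower and 1 higher. Idh2 (-0.89 ± 0.10) of the cycle and the pyruvate dehydrogenase kinase gene Pdk3 (-0.54 ± 0.09) fell, and Mdh2 (0.24 ± 0.07), malate dehydrogenase, rose in the authors' deposited table. Carriers of the Slc25 family had 7 of 40 higher and 9 lower. The aspartate-glutamate carriers Slc25a12 (-1.21 ± 0.11) and Slc25a13 (-0.88 ± 0.13) fell, the former with a DESeq2 adjusted p of 1.17e-27, by the authors' deposited table.

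Fatty acid breakdown had members on both sides. The peroxisomal oxidase Acox3 (0.93 ± 0.14) and the carnitine transferase Cpt1a (0.98 ± 0.15), which admits long chains to mitochondria, rose in the authors' deposited table. The matrix enzymes Decr1 (-0.60 ± 0.12) and Echs1 (-0.43 ± 0.09) and the electron carrier Etfa (-0.50 ± 0.09) fell in the authors' deposited table, and the family had 5 of 27 higher and 9 lower. On the storage side, the lipid droplet coat genes Plin2 (1.16 ± 0.12) and Plin3 (0.68 ± 0.10) and the phosphatidate phosphatase Lpin1 (1.78 ± 0.17) rose, and the elongase Elovl6 (-0.61 ± 0.08) and the acyltransferase Gpam (-0.81 ± 0.15) fell in the authors' deposited table. That family had 11 of 35 higher and 8 lower. Sphingolipid genes outside the lysosomal list had 7 of 24 higher and 4 lower, and Sgpl1 (0.70 ± 0.07), the lyase that cleaves sphingosine phosphate, rose in the authors' deposited table. Sterol synthesis (2 higher and 6 lower of 27) and glycolysis (6 and 2 of 25) had 29.6% and 32.0% of their members past the threshold, beside 37.5% over all tested genes.

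Metal handling genes rose more often than they fell. Of 22 genes 10 rose and 3 fell, median 0.05. The metallothioneins Mt1 (1.80 ± 0.13) and Mt2 (1.79 ± 0.21), small proteins that bind zinc and copper, were 3.49-fold and 3.47-fold higher in the authors' deposited table, and the DESeq2 adjusted p of Mt1 was 3.58e-38. Mt1 and Mt2 are near-identical neighbours. The transferrin receptor Tfrc (-0.66 ± 0.16), the iron-sulphur scaffold Iscu (-0.34 ± 0.11) and the cytosolic aconitase Aco1 (-0.23 ± 0.08) fell in the authors' deposited table. Glutathione, thioredoxin and NRF2 target genes, which detoxify peroxides, had 18 of 35 higher and 4 lower. Gss (0.88 ± 0.10), glutathione synthase, Gpx3 (1.05 ± 0.12), a secreted peroxidase, and Hmox1 (0.84 ± 0.10), haem oxygenase, rose, and the peroxiredoxins Prdx3 (-0.43 ± 0.09) of mitochondria and Prdx4 (-0.62 ± 0.10) of the endoplasmic reticulum fell in the authors' deposited table. Aldo-keto reductases (3 of 9 higher and 1 lower) and NADPH-forming genes (5 of 11 higher and 2 lower) included Akr1a1 (0.39 ± 0.07), Akr7a5 (0.54 ± 0.12) and the cytosolic dehydrogenase Idh1 (0.50 ± 0.08), all of which rose in the authors' deposited table.

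Protein folding genes moved in both directions. The unfolded protein response family had 16 of 31 lower and 6 higher, median -0.26. The reticulum chaperone Hsp90b1 (-0.64 ± 0.08), the disulphide isomerase Pdia6 (-0.75 ± 0.08) and the co-chaperones Dnajb11 (-0.65 ± 0.09) and Dnajc10 (-0.62 ± 0.07) fell in the authors' deposited table, while Canx (0.27 ± 0.06), calnexin, and Syvn1 (0.37 ± 0.10), the ligase of reticulum-associated degradation, rose. HSP70, HSP90 and small heat shock genes had 7 of 24 higher and 6 lower. The small heat shock genes Hspb1 (0.71 ± 0.12) and Hspb8 (1.02 ± 0.13) and the inducible Hspa1b (0.76 ± 0.12) rose and Hspa14 (-0.56 ± 0.09) and Hspa13 (-0.56 ± 0.12) fell in the authors' deposited table. The integrated stress response, which halts translation through eIF2alpha, had 7 of 29 higher and 5 lower. Its transcription factors Ddit3 (1.82 ± 0.16), also called CHOP, and Atf3 (1.54 ± 0.23) rose, with a DESeq2 adjusted p of 1.49e-26 for Ddit3, and the amino acid transporter Slc7a5 (-0.52 ± 0.16) fell in the authors' deposited table. N-glycan assembly had 16 of 39 lower and 2 higher. The lipid-linked sugar transferases Alg8 (-1.10 ± 0.11), Alg10b (-0.94 ± 0.10) and Alg13 (-1.02 ± 0.14) fell to 46.5%, 52.1% and 49.3% of wild type in the authors' deposited table.

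Families of protein disposal had members on both sides. The proteasome had 13 of 43 genes higher and 7 lower, with values from -0.56 to 0.50. Psmd8 (0.43 ± 0.07) rose and Psmd9 (-0.56 ± 0.11), an assembly factor, fell in the authors' deposited table. E2 ubiquitin-conjugating enzymes had 9 of 28 higher and 4 lower. Ube2h (0.73 ± 0.09) rose, and Ube2s (-0.74 ± 0.09), which extends chains for the anaphase-promoting complex, and Ube2t (-0.91 ± 0.19), the Fanconi E2, fell in the authors' deposited table. Ubiquitin-specific proteases had 9 of 45 higher and 13 lower, among them Usp22 (0.40 ± 0.09) up and Usp1 (-0.74 ± 0.11), which clears ubiquitin from FANCD2 and PCNA, down in the authors' deposited table. TRIM ligases outside the interferon list had 15 of 38 higher and 3 lower, with Trim7 (2.08 ± 0.23) and Trim12c (1.59 ± 0.20) among the higher in the authors' deposited table. DnaJ co-chaperones had 8 of 38 higher and 13 lower.

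Genes of the extracellular matrix changed in both directions. Matrix metalloproteinases and their inhibitors had 11 of 19 higher and 0 lower, median 0.66. Mmp3 (2.98 ± 0.20), a stromelysin, and Mmp13 (3.09 ± 0.21), the collagenase of cartilage and bone, were 7.88-fold and 8.52-fold higher, and the membrane-bound Mmp15 (2.19 ± 0.21) rose with them in the authors' deposited table. Mmp3 and Mmp13 lie in a cluster on chromosome 9 between 7272514 and 7510240 (GRCm38), and by the authors' deposited table both other tested genes of the cluster, Mmp10 (2.21 ± 0.58) and Mmp12 (1.39 ± 0.39), rose too. That pair was chosen after the values were seen. The promoter windows of Mmp3, Mmp10 and Mmp13 are shown because each holds an AP-1 motif (TGANTCA, in capitals) close to the start. The motif begins 46, 63 and 35 bases before the start. The windows are those of RefSeq on GRCm38.p6, plus strand, chr9:7445572-7445871 for Mmp3, chr9:7502092-7502391 for Mmp10 and chr9:7272264-7272563 for Mmp13.
Mmp3: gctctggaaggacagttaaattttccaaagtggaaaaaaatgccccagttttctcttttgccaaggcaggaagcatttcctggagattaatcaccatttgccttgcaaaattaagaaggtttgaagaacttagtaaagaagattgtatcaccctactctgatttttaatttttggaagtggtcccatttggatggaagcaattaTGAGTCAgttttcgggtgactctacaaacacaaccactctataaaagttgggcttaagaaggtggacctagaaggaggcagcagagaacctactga
Mmp10: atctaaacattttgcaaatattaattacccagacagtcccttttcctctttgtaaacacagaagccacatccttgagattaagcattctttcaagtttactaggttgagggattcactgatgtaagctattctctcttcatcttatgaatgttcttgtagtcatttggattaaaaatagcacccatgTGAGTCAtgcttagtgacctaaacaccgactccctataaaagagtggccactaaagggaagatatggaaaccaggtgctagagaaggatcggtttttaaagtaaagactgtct
Mmp13: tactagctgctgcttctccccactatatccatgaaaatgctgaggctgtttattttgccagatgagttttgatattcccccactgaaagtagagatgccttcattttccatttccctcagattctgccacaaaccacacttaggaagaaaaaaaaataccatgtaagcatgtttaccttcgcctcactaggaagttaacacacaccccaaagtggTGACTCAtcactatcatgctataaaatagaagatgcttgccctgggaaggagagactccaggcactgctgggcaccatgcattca

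Serpins, which inhibit serine proteases, had 11 of 19 higher and 1 lower, median 0.79. Of the 19, 10 had a mean count under 100, and only 4 of the 11 that rose had 100 or more. Serpine2 (1.88 ± 0.36), a protease nexin, Serpinb9b (1.30 ± 0.18) and Serpinb6b (0.88 ± 0.22) rose, and Serpinh1 (-0.29 ± 0.09), the collagen chaperone HSP47, fell in the authors' deposited table. Several serpin genes are near copies of each other, with the same limit on read assignment as the histones. Small leucine-rich proteoglycans, which coat collagen fibrils, had 4 of 12 higher and 0 lower. Lumican and decorin were at 2.42 ± 0.21 and 1.42 ± 0.17 in the authors' deposited table, and Tsku (0.63 ± 0.10) rose too. Collagens had 8 of 40 higher and 10 lower. Col18a1 (1.15 ± 0.15), of basement membranes, and the fibril-associated Col20a1 (2.02 ± 0.34) and Col9a3 (1.91 ± 0.37) rose, and Col12a1 (-0.61 ± 0.08), Col11a1 (-1.02 ± 0.17) and Col15a1 fell in the authors' deposited table. Collagen processing had 6 of 30 higher and 8 lower. Of these genes, 29 had a mean count of 100 or more. In that range 20.2% of all tested genes rose and 26.5% fell, so the family was near the background. The lysyl hydroxylase Plod2 (0.55 ± 0.08) rose and the protease Tll1 (-1.18 ± 0.09) and the prolyl hydroxylase P4ha3 (-1.19 ± 0.11) fell in the authors' deposited table, Tll1 with a DESeq2 adjusted p of 1.48e-38.

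Basement membrane genes included Agrn (1.33 ± 0.15) and Lamb1 (0.51 ± 0.07) as higher members and Nid2 (-0.98 ± 0.12) and Lama2 (-0.83 ± 0.13) as lower ones in the authors' deposited table, with 4 of 15 laminins and nidogens higher and 3 lower. Elastic fibre and fibronectin genes had 6 of 36 higher and 9 lower, and the matrilins parted, Matn4 (2.46 ± 0.36) rising and Matn3 (-2.19 ± 0.42) falling in the authors' deposited table. Cartilage genes had 4 of 15 higher and 3 lower. The joint lubricant gene Prg4 (2.08 ± 0.30) rose, and aggrecan and Col11a1 fell, in the authors' deposited table. Among hyaluronan genes, the hyaluronidase gene Hyal1 (2.05 ± 0.25) rose and the synthase gene Has2 (-1.38 ± 0.38) fell in the authors' deposited table. Proteoglycan cores and hyaluronan genes together had 8 of 24 higher and 4 lower.

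Signalling families differed in direction. TGF-beta and BMP ligands and receptors had 12 of 36 higher and 1 lower, median 0.36. The activin subunit gene Inhbb (0.89 ± 0.12) and the receptor Tgfbr2 (0.71 ± 0.12) rose in the authors' deposited table. The activin receptor Acvr2b (-1.27 ± 0.46), whose mean count was under 100, fell in the authors' deposited table. Among SMADs and antagonists (8 of 27 higher and 4 lower) the BMP antagonist Grem1 (1.68 ± 0.16) rose and the activin antagonist Fst (-1.03 ± 0.14) fell in the authors' deposited table. PDGF and VEGF genes had 9 of 26 higher and 1 lower, with Pdgfa (0.93 ± 0.10), Flt4 (0.75 ± 0.10) and Angpt2 (1.20 ± 0.21) among the higher and Nrp1 (-0.45 ± 0.10) lower in the authors' deposited table. Guidance genes (semaphorins, plexins, slits and netrins) had 17 of 51 higher and 7 lower, with Ntn1 (1.0 ± 0.15) and its receptor Neo1 (0.58 ± 0.09) up and Sema3a (-1.01 ± 0.15) and Slit2 (-0.54 ± 0.13) down in the authors' deposited table. Ephrins and their receptors had 7 of 18 higher and 1 lower, with Epha2 (0.47 ± 0.08) among the higher in the authors' deposited table.

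The Notch pathway, in which a ligand on 1 cell activates a receptor on its neighbour, had members on both sides. The ligand gene Jag2 (2.77 ± 0.42) and the receptor gene Notch3 (1.77 ± 0.34) rose in the authors' deposited table. The target genes Hey1 (-1.24 ± 0.27), Hey2 (-1.12 ± 0.26) and Hes1 (-0.59 ± 0.14), transcriptional repressors that Notch signalling switches on, fell in the authors' deposited table. The whole family outside the lists had 7 of 23 higher and 8 lower, median -0.06, and only 4 of the 8 lower members had a mean count of 100 or more. For Hey1 and Notch3 the effect differed with Adriamycin, where they stood at 0.10 ± 0.19 and 0.30 ± 0.10 in the authors' deposited table.

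Nuclear receptors had 13 of 33 higher and 1 lower, median 0.27. With Esr1, whose reads have the limit given above, rose Esr2 (1.92 ± 0.32), the other oestrogen receptor, with a mean count of 48.9, and Esrra (0.67 ± 0.13), the oestrogen-related receptor alpha of energy metabolism, in the authors' deposited table. Nr2c2 (-0.21 ± 0.08) was the only one that fell in the authors' deposited table. Circadian clock genes had 7 of 17 higher and 0 lower. The output factors Dbp (1.80 ± 0.24) and Tef (0.55 ± 0.09) and the repressor Cry2 (0.53 ± 0.10) rose, and the core pair Arntl and Clock were at -0.09 ± 0.15 and -0.13 ± 0.11, neither past the threshold, in the authors' deposited table. Sox factors had 4 of 13 higher and 0 lower, with Sox4 (0.54 ± 0.09) and Sox9 (0.75 ± 0.18), the regulator of cartilage, among the higher in the authors' deposited table. KLF and SP factors had 8 of 21 higher and 4 lower, among them Sp6 (2.38 ± 0.42) and Klf4 (0.78 ± 0.14) up and Klf8 (-0.97 ± 0.22) and Klf5 (-0.51 ± 0.15) down in the authors' deposited table. Few genes of positional identity passed: of 36 Hox genes 3 rose and 0 fell, and of 44 limb and mesenchyme homeobox genes 3 rose and 1 fell. The Zfp zinc finger genes, a large group of mostly DNA-binding proteins, had 87 of 326 lower and 17 higher, median -0.22. In all 31.9% of them passed, below the 37.5% of all tested genes. Of the 223 with a mean count of 100 or more 57 fell, in a range where 26.5% of all tested genes fell.

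Imprinted genes, which are expressed from 1 parental allele, had 16 of 45 higher and 4 lower, median 0.16. Impact (1.33 ± 0.09), Osbpl5 (0.93 ± 0.08) and Blcap (0.79 ± 0.08) had the smallest adjusted p of the higher members, and Peg12 (-0.75 ± 0.14), Commd1 (-0.46 ± 0.13) and Mest (-0.58 ± 0.19) of the lower ones, in the authors' deposited table. Chosen after their values were seen, the maternally expressed RNAs of the Dlk1-Dio3 domain on chromosome 12, Meg3 (0.82 ± 0.11), Rian (0.65 ± 0.07) and Mirg (0.63 ± 0.12), rose, and the paternally expressed Dlk1 (-0.04 ± 0.10) and Dio3 (-0.31 ± 0.37) of that domain did not pass in the authors' deposited table. For Meg3 and Rian the effect differed with Adriamycin, where they were at -0.17 ± 0.13 and 0.10 ± 0.11 in the authors' deposited table. The growth factor gene Igf2 and its neighbour H19 were at 0.21 ± 0.33 and -0.18 ± 0.31, neither past the threshold, in the authors' deposited table.

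Several adhesion families had more higher than lower members. Of 11 epithelial markers tested 5 rose and 1 fell, median 0.55, and their part in these counts was not tested. Cadherins had 6 of 15 higher and 1 lower, claudins and tight junctions 7 of 14 and 2, and tetraspanins 6 of 22 and 1. The junction molecule F11r (1.69 ± 0.17), the claudin Cldn1 (1.36 ± 0.30) and the tetraspanin Cd151 (0.86 ± 0.09) rose in the authors' deposited table. Integrins were balanced, 5 higher and 6 lower of 27, with Itgb4 (2.43 ± 0.26) up and Itgb3 (-0.44 ± 0.13) and Itgav (-0.30 ± 0.09) down in the authors' deposited table. The connexins, which form gap junctions, had no member that rose and 3 of 11 that fell. Gjc1 (-0.56 ± 0.10) fell with Gjb2, and Gja1, the connexin 43 gene, was at 0.08 ± 0.17 without passing, in the authors' deposited table. Among keratins (4 of 11 higher and 2 lower) Krt5 (3.16 ± 0.65) and Krt15 (2.64 ± 0.67) rose from low levels, with mean counts of 9.93 and 6.49 in the authors' deposited table.

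Unconventional and non-muscle myosins had 10 of 26 higher and 2 lower. Myo10 (0.60 ± 0.10) of filopodia rose in the authors' deposited table. Tubulins had 2 of 15 higher and 5 lower. Tuba4a (1.15 ± 0.15) rose and Tuba1b (-0.41 ± 0.08) fell in the authors' deposited table, and with Adriamycin Tuba1b was on the other side of 0, at 0.41 ± 0.09. Skeletal muscle genes had 10 of 26 higher and 0 lower, although 21 of them had a mean count under 100. Acta1 and the filament gene desmin were at 1.04 ± 0.15 and 0.99 ± 0.15 in the authors' deposited table. Ciliary transport and BBS genes, which build the antenna of the cell, had 27 of 53 lower and 1 higher, median -0.46. Cep290 (-1.16 ± 0.14) of the transition zone and Ift80 (-1.0 ± 0.14) of intraflagellar transport fell, and Wdr35 (0.25 ± 0.10) rose in the authors' deposited table. None of the 53 members tested in both tables differed between vehicle and Adriamycin by the z test, which called 7.09% of all genes. With the drug 31 of them fell, where 32.7% of all tested genes passed in either direction.

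Channel and receptor families of excitable cells had more higher than lower members. Sodium and chloride channels had 9 of 31 higher and 4 lower, and the sodium channel beta subunit gene Scn4b (2.79 ± 0.55) rose with Scn3b in the authors' deposited table. Of the chloride and volume channels Lrrc8c (-0.39 ± 0.08) and Lrrc8e (-1.90 ± 0.45) fell in the authors' deposited table. Neurotransmitter receptors had 9 of 34 higher and 1 lower, 24 of them with a mean count under 100. The ATP-gated channel P2rx4 (0.85 ± 0.11) and the glutamate receptor subunit Gria3 (0.61 ± 0.10) rose in the authors' deposited table. SLC carriers outside the mitochondrial group, a family of another kind, had 45 of 189 higher (23.8%) and 31 lower (16.4%). In all 40.2% of them passed, near the 37.5% of all tested genes, of which 17.8% rose and 19.6% fell. The zinc carrier Slc39a6 (0.74 ± 0.06) and the anion exchanger Slc4a2 (0.73 ± 0.07) rose and Slc43a1 (-1.50 ± 0.22), an amino acid carrier, fell in the authors' deposited table. Alox5 (2.85 ± 0.42), the first enzyme of leukotriene synthesis, rose from a mean count of 68.1 in the authors' deposited table, in a family of prostaglandin and leukotriene enzymes with 6 of 22 higher and 1 lower.

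Survival and growth families were mixed. The BCL2 family outside the p53 list had 5 of 14 higher and 2 lower, with the death promoter Bid (0.70 ± 0.12) and the survival gene Bcl2l1 (0.60 ± 0.10) both higher in the authors' deposited table. The YAP and TEAD pathway had 5 of 28 higher and 7 lower. All 28 had a mean count of 100 or more, where 20.2% of tested genes rose and 26.5% fell, so the pathway was near the background. Its transcription factors Tead4 (-0.58 ± 0.14) and Tead1 (-0.24 ± 0.06) fell in the authors' deposited table. Of other families that met the rule, genes of mitochondrial fusion, fission and biogenesis had 2 of 25 higher and 12 lower, and RNAs of the mitochondrial genome 2 of 7 and 0. Receptor-type tyrosine phosphatases had 6 of 17 higher and 2 lower, dyneins and axonemal genes 8 of 21 and 4, annexins 3 of 10 and 1, and aquaporins with the sodium pump 3 of 12 and 0. Of the marker lists of other cell types, neural and glial markers had 5 of 14 higher and 1 lower, osteoblast markers 3 of 11 and 0, and trophoblast genes 2 of 7 and 0. Of the tested genes of these lists 9, 7 and 5 had a mean count under 100, where 13% of all tested genes rose and 5.52% fell. Among the members that rose only 0, 1 and 0 had a mean count of 100 or more. The 59 families that did not meet the rule had between 0% and 39.6% of their members past the threshold. Among them were WNT genes (6 higher and 7 lower of 51), chemokines and receptors (7 and 3 of 28), interleukins and receptors (5 and 8 of 47), Hedgehog genes (0 and 3 of 13), potassium channels (9 and 2 of 47) and COPI, COPII and translocon genes (5 and 15 of 54).

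**Figure D4:**
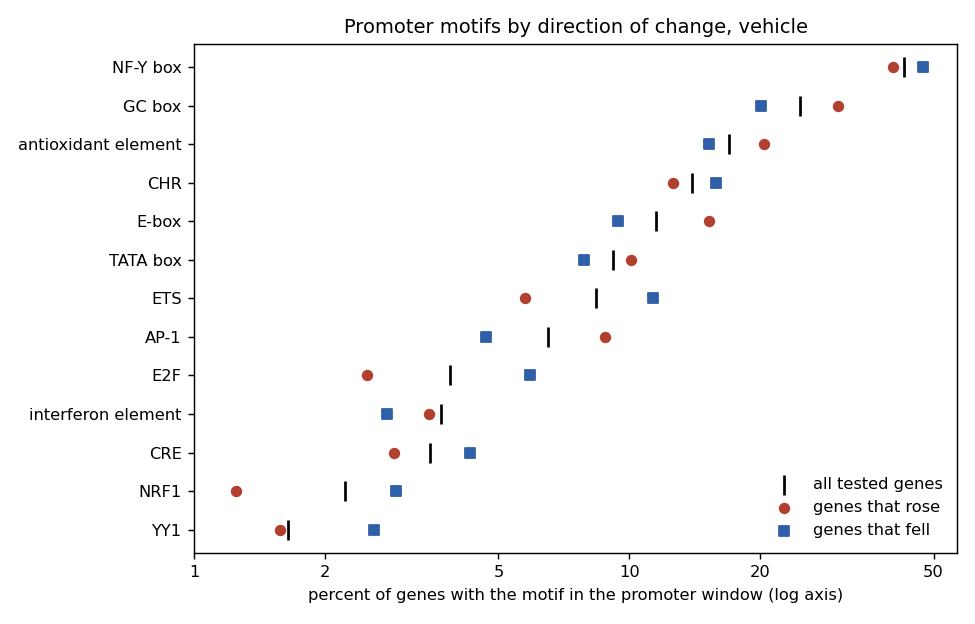
Percent of tested genes whose RefSeq promoter window (250 bases before to 50 after the start, GRCm38.p6) holds each motif on either strand, for genes that rose, genes that fell and all tested genes, members set apart left out of the first 2 groups. The ETS and E2F motifs lie further right in genes that fell, and the E-box, AP-1 motif and GC box in genes that rose.

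Promoter windows were searched for 13 motifs on both strands in 10574 tested genes with a RefSeq window. Outside the families set apart, the ETS motif (CCGGAAGT) was in 11.3% of the windows of genes that fell, 5.75% of those that rose and 8.37% of all. The E2F motifs (TTTGGCGC, TTTCGCGC or TTTCCCGC) were in 5.90%, 2.49% and 3.86%, and the CCAAT motif in 47.3%, 40.3% and 42.7%. In the other direction the E-box (CACGTG) was in 15.2% of windows of genes that rose, 9.43% of those that fell and 11.5% of all. The AP-1 motif (TGANTCA) was in 8.78%, 4.67% and 6.51%, the antioxidant element (TGACNNNGC) in 20.4%, 15.2% and 16.9%, the GC box (GGGGCGGGG) in 30.1%, 20.1% and 24.6% and the TATA box (TATAAA) in 10.1%, 7.85% and 9.15%. The cell cycle element CHR (TTTGAA) was in 12.6% of genes that rose and 15.8% of those that fell, and the CRE motif (TGACGTCA) in 2.87% and 4.31%. For the interferon response element, the NRF1 motif and the YY1 motif the shares were 3.47% and 2.77%, 1.25% and 2.90%, and 1.57% and 2.59%. These shares are descriptions, and motifs can overlap each other.

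By family, the ETS motif was in 29.4% of the 68 ribosome biogenesis windows, 21.7% of the 23 nuclear pore windows, 18.4% of the 38 spliceosome windows and 18.2% of the 66 mitochondrial ribosome windows. It was also in 25% of the 36 proteasome windows and 18% of the 61 cytosolic ribosomal protein windows, families in which more members rose than fell, and in 2.56% of the 39 complex I windows. The E2F motifs were in 40% of the 45 DNA replication windows. The AP-1 motif was in 28.6% of the 14 metalloproteinase windows, none of which held the ETS motif. A window of each kind is shown to place the motif, in capitals, against the start of a gene named above. The E2F match of Mcm5 (chr8:75109259-75109558, plus strand) begins 153 bases before the start, the ETS match of Sf3a3 (chr4:124714611-124714910, plus strand) 91 bases before it and the E-box of Plin2 (chr4:86670010-86670309, minus strand) 4 bases before it, on GRCm38.p6.
Mcm5: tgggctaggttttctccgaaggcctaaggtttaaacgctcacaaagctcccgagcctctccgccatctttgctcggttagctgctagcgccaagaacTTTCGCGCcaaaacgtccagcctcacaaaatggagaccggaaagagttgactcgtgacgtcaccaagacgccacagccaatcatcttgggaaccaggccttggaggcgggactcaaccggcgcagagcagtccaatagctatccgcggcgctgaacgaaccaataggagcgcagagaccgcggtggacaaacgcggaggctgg
Sf3a3: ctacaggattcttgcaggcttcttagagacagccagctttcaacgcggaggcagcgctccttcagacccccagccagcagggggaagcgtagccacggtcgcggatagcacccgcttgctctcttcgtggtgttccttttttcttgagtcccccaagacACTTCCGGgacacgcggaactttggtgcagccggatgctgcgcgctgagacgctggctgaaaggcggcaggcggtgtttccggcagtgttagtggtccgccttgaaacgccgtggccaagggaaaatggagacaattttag
Plin2: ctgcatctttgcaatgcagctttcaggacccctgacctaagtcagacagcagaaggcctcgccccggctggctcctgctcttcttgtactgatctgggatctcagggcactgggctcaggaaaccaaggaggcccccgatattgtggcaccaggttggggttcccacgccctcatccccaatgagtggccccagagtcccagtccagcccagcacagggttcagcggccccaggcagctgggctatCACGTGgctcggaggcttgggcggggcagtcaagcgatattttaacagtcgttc

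**Figure D5:**
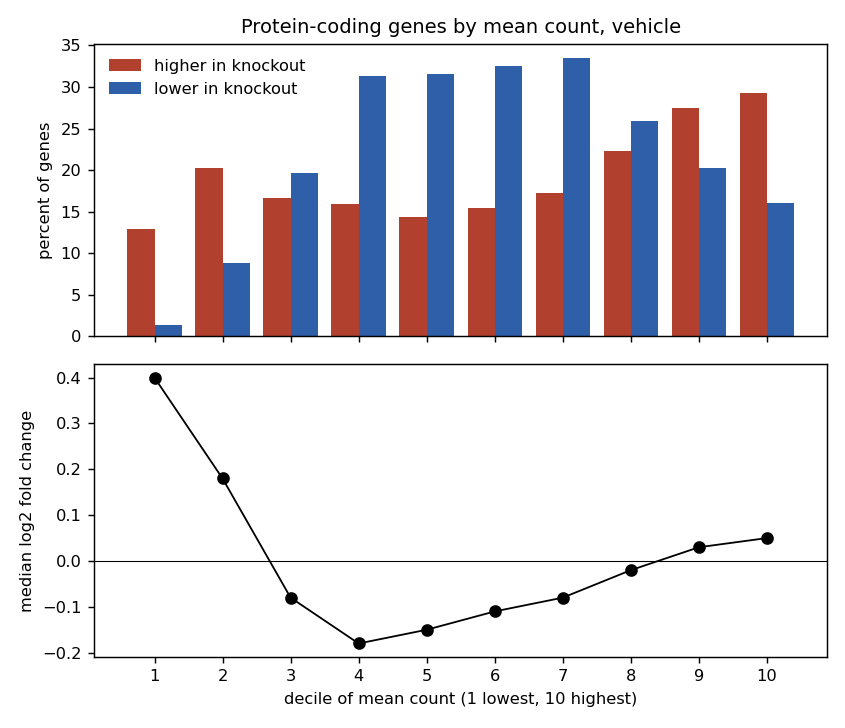
Protein-coding genes split into 10 groups of equal size by mean count (x axis, decile 1 lowest). Top, percent of genes that rose and that fell under vehicle. Bottom, median log2 fold change. Genes that fell peak at 33.5% in decile 7, and genes that rose are most frequent in decile 10.

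Direction varied with the mean count. Of the 10 groups of protein-coding genes by mean count, the lowest (4.37 to 16.3) had 12.9% higher and 1.32% lower with a median of 0.40. The fourth to the seventh had 14.4% to 17.3% higher and 31.3% to 33.5% lower, with medians from -0.18 to -0.08. The highest had 29.3% higher and 16% lower with a median of 0.05. For families of scarce transcripts the matching shares are therefore 13% higher and 5.52% lower, those of the 5108 tested genes with a mean count under 100. For families of well-counted genes the matching shares are 20.2% higher and 26.5% lower, those of the 10497 tested genes with a mean count of 100 or more.

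Most tested noncoding RNAs had few reads. Of 269 long intergenic RNAs 46 rose (17.1%) and 17 fell (6.32%), of 281 antisense RNAs 30 rose (10.7%) and 7 fell (2.49%), and of 205 processed transcripts 26 rose (12.7%) and 4 fell (1.95%). Of these, 229, 260 and 171 had a mean count under 100, a range in which 13% of all tested genes rose and 5.52% fell. Of 99 small nucleolar RNAs none rose and 1 fell by DESeq2. No source used here states whether strand was used in counting, so reads of an antisense RNA and its partner cannot be told apart. By chromosome, between 34.9% (chromosome 18) and 41.2% (chromosomes 5 and 10) of tested genes changed on the autosomes, with medians from -0.04 to 0.08. The X chromosome had 81 higher and 100 lower of 544, 33.3% in all, with a median of -0.01.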

How the data were processed

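RNA was taken from MEFs with an RNeasy kit and sequenced from poly(A)-enriched Illumina libraries, per the labels' protocols. The submitters' processing notes name DESeq2 1.4.1, TopHat2 2.0.13, featureCounts 1.4.5-p1 and the build GRCm38, without their roles. The deposited signal (baseMean, per the file headers) is in DESeq2 the mean over samples of counts divided by size factors. The deposited log2 fold changes and their SE, and the score (Wald statistic, equal to the fold change over its SE to within 1.1e-13), were made by the authors, as were the p-value and the Benjamini-Hochberg adjusted p-value. No value per sample was in the tables used here, so the direction was set by the sign of Kat8. Differences between drug conditions were computed from the deposited fold changes as a z test over 13973 genes, adjusted by Benjamini-Hochberg. The test was run on simulated data whose noise was drawn from the same SE that it divides by. That run held no shrinkage of fold changes, so it cannot show how the test behaves under unequal shrinkage. Python 3.11.15, pandas 2.3.3 and scipy 1.17.1 were used.

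The members and lists were chosen with earlier results of these data known. Families were matched by symbol, and patterns that took genes of another name were corrected after the data were seen. Named genes were Kat8, its 5 tested neighbours on each side, the 15 highest and 15 lowest genes whose mean count reached 100, outside the 4 lists set apart and predicted symbols, Y-linked genes and Xist, and up to 3 members in each direction with the smallest adjusted p of each described family. A family was described where at least 5 members were tested and at least 40% passed, or at least 25% in 1 direction and under 5% in the other, or none of 10 or more. Genes outside this rule, namely Vim, Twist1, Arntl, Clock, Igf2, H19, Dlk1, Dio3, Meg3, Rian, Mirg, Gja1, Hist1h4h, Mmp10, Mmp12 and the histone genes that did not pass, were named after their values were seen. GENCODE M21 gave coordinates and gene types (15504 of 15605 tested identifiers matched), and RefSeq gave promoter windows. Other thresholds, count limits and a median centring were tried as alternatives. Some members that the rule picks are not reported here. Podocyte tables were not used here.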

Additional observations from a re-analysis of the deposited data

Results flagged for a closer look

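For 79 of the 282 named genes tested in both MEF tables, the knockout effect with Adriamycin differed from that with vehicle by the z test with Benjamini-Hochberg adjustment, where 7.09% of all genes tested in both were called. The named genes were chosen for large or well-measured effects under vehicle, so this share is not a result about them. Each value below is the Adriamycin effect minus the vehicle effect, on the log2 scale with its SE, computed from the authors' deposited tables. In 52 genes the difference was below 0 and in 27 above it, and in 78 the effect with Adriamycin was the smaller in size, the exception being Tuba1b, whose effects had the same size at 2 decimals. Ahcy, Hist1h1c and Tuba1b passed the DESeq2 threshold in both tables on opposite sides of 0, at 0.42 ± 0.15, -0.41 ± 0.16 and 0.41 ± 0.09 with Adriamycin.

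Among the leading increases the differences were Svop (-3.33 ± 0.36), Scn3b (-1.52 ± 0.30), Sncg (-2.10 ± 0.36), Espn (-1.18 ± 0.33), Tbc1d8 (-1.68 ± 0.33), Celf5 (-2.06 ± 0.48), Apobec1 (-1.11 ± 0.34), Icam1 (-1.19 ± 0.26) and Esr1 (-1.38 ± 0.25). Those of the histone genes were Hist1h4h (-2.42 ± 0.41), Hist1h2be (-2.07 ± 0.29), Hist1h1c (-1.63 ± 0.20), Hist1h2bc (-1.45 ± 0.17), Hist3h2a (-1.23 ± 0.26) and H2afj (-0.47 ± 0.14). Matrix and secreted genes gave Mmp13 (-0.88 ± 0.30), Mmp15 (-1.23 ± 0.27), Lum (-1.12 ± 0.32), Prg4 (-1.42 ± 0.38), Matn4 (-1.23 ± 0.41), Hyal1 (-1.59 ± 0.27), Agrn (-0.84 ± 0.19), Col18a1 (-0.72 ± 0.19), Serpine2 (-1.29 ± 0.39) and Serpinb9b (-1.02 ± 0.24). Receptors, ligands and junction genes gave Jag2 (-1.66 ± 0.47), Notch3 (-1.47 ± 0.35), Itgb4 (-1.72 ± 0.32), F11r (-0.94 ± 0.20), Cldn1 (-1.21 ± 0.39), Gria3 (-0.69 ± 0.13), Inhbb (-0.68 ± 0.17), Tgfbr2 (-0.48 ± 0.15), Pdgfa (-0.44 ± 0.15) and Emr1 (-1.05 ± 0.34). Metabolic and mitochondrial genes that stood higher under vehicle gave Alox5 (-2.11 ± 0.44), Ppargc1a (-1.98 ± 0.61), Lpin1 (-1.07 ± 0.20), Gpx3 (-0.75 ± 0.16) and Lars2 (-0.80 ± 0.24). Regulators and imprinted genes gave Sp6 (-1.42 ± 0.46), Klf4 (-0.74 ± 0.19), Sox4 (-0.56 ± 0.13), Ccnd2 (-0.66 ± 0.15), Mxd4 (-0.74 ± 0.16), Impact (-0.64 ± 0.12), Osbpl5 (-0.46 ± 0.11), Meg3 (-1.0 ± 0.17), Rian (-0.55 ± 0.13), Trim7 (-1.32 ± 0.25), Trim12c (-1.42 ± 0.27) and Ube2h (-0.42 ± 0.12).

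In genes that fell under vehicle the differences lay above 0. For replication, repair and centriole genes they were Eme1 (1.93 ± 0.48), Cep128 (2.29 ± 0.31), Sass6 (1.03 ± 0.30), E2f8 (1.4 ± 0.40), Tyms (0.99 ± 0.21), Usp1 (0.63 ± 0.18) and Ube2s (0.92 ± 0.16). For RNA and nuclear genes they were Nup133 (0.59 ± 0.16), Lsm3 (0.98 ± 0.22), Hnrnpd (0.56 ± 0.14), Exosc8 (0.65 ± 0.18), Polr3g (0.94 ± 0.25), Tcof1 (0.97 ± 0.14), Mcrs1 (0.46 ± 0.15), Bcl7a (0.57 ± 0.17) and Kars (0.34 ± 0.11). The remaining ones were Shmt1 (1.09 ± 0.31), Ahcy (0.99 ± 0.17), Idh2 (0.61 ± 0.20), Mrpl9 (0.51 ± 0.15), Mrpl18 (0.46 ± 0.15), Hsp90b1 (0.52 ± 0.10), Pdia6 (0.42 ± 0.14), Hspa14 (0.43 ± 0.14), Col15a1 (1.80 ± 0.48), Hey1 (1.34 ± 0.33) and Tuba1b (0.82 ± 0.13). What sets these differences, unequal shrinkage of the fold changes with vehicle and with Adriamycin included, was not tested.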

How the results depend on the processing

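The counts of genes that rose and fell were recomputed with adjusted p thresholds of 0.01 and 0.1, with adjustment over all genes whose mean count was 1 or more, with genes whose mean count was 100 or more only, and with fold changes centred on their median (0.008). Under these 5 alternatives genes that rose ran from 2066 to 3280 and genes that fell from 2312 to 3546, each within 1.5 times the value reported. The count of genes whose effect differs between vehicle and Adriamycin was 991, with 486 at a threshold of 0.01, 935 where the mean count was 100 or more in both tables and 1045 with each table centred. All 286 named genes kept their direction and their side of the threshold under centring. Centring moved each value by only 0.008, against a median SE of 0.12 for well-counted genes. Most named genes were also picked for small adjusted p or large fold change, so this outcome was near certain and tests little. Of the 298 family counts by direction, 72 moved by more than 1.5 times at 0.01, 32 at 0.1, 47 with the count limit, 5 with adjustment over more genes and 3 with centring. Medians of the autosomes, X and Y over genes whose mean count was 100 or more lay between -0.09 and 0.02, and that of the mitochondrial genome was 0.16.

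No paired analysis was possible because the tables hold no value per sample, and for the same reason no sample could be left out. Depth per library is unknown. The median SE was 0.47 for tested genes with a mean count under 100 and 0.12 for the others. DESeq2 of the version named shrinks fold changes by default, most for scarce transcripts, so their sizes may be understated. No source used here says if that default was kept. The largest SE of any row was 0.71, and at mean counts of 1 or less no fold change exceeded 1.02 in size. Bounds so tight at such counts are what that default gives.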
